A study of Homo sapiens with 18 samples.

Results

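The 8 genes described here, *ESR1*, *PGR*, *GATA3*, *FOXA1*, *XBP1*, *MLPH*, *TFF1* and *AGR2*, are markers of luminal and hormone receptor positive breast epithelium. They were chosen by gene symbol, and each symbol was carried by 1 transcript cluster, the unit that an Affymetrix Human Gene 2.0 ST array measures for a gene, so that 8 of 53617 transcript clusters were taken. The cells were HCC1806 and HCC1395, 2 established human triple-negative breast cancer (TNBC) lines, a class of breast cancer that lacks the estrogen and progesterone receptors and *ERBB2* amplification. Each line was treated for 48 h with *PART1* GapmeR 1, *PART1* GapmeR 2 or a negative control GapmeR, with 3 arrays for each of the 6 groups and 18 arrays in all. A GapmeR is a short antisense oligonucleotide with a DNA core that directs RNase H to the RNA it pairs with, here the long non-coding RNA *PART1*. The labels give each line by name only, without passage or clone, and no untreated or mock-treated arrays were analyzed here.

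In luminal breast epithelium, *ESR1* encodes estrogen receptor alpha, and the pioneer factor FOXA1 and the zinc finger factor GATA3 open and hold the chromatin on which that receptor acts. *PGR*, *TFF1* and *XBP1* are among the genes that the receptor induces in hormone responsive cells. *XBP1* is also the spliced transcription factor of the unfolded protein response, *AGR2* is a protein disulfide isomerase of the endoplasmic reticulum, *TFF1* is a secreted trefoil peptide, and *MLPH* (melanophilin) links RAB27A-bound vesicles to class V myosins. TNBC is defined by the absence of the receptors themselves, whereas the other luminal genes vary between TNBC lines.

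Of the 8 genes, 7 had at least 1 promoter window in the RefSeq table for GRCh38.p14 (250 bases before to 50 after a transcript start), and *TFF1* was not matched. In that build the estrogen receptor gene *ESR1* spans chr6:151656672-152129619, *GATA3* chr10:8045333-8075198, *FOXA1* chr14:37589552-37595249 and *AGR2* chr7:16791811-16804999, and *PGR* spans chr11:101029624-101129813, *XBP1* chr22:28794560-28800569, *MLPH* chr2:237486410-237555322 and *TFF1* chr21:42362282-42366535. The windows of *AGR2* and *FOXA1* are shown because both genes had a single window and a wide gap between the lines, and the upstream window of *XBP1* is shown because its level was nearly even. Each is written 5′ to 3′ along the gene's own strand, and capitals mark every match, on either strand, to a forkhead motif (TGTTTAC, and likewise the related word TGTTTGC), to the GATA motif (AGATAA), to the core of the estrogen response element (GGTCA) or to the core of the endoplasmic reticulum stress element (CCACG).
*AGR2*, chr7:16804950-16805249, minus strand: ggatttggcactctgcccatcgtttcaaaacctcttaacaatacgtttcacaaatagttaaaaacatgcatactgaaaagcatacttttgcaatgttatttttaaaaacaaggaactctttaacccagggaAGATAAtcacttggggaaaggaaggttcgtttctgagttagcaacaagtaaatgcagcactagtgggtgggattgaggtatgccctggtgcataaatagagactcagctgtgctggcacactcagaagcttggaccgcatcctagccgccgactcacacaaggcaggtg
*FOXA1*, chr14:37595200-37595499, minus strand: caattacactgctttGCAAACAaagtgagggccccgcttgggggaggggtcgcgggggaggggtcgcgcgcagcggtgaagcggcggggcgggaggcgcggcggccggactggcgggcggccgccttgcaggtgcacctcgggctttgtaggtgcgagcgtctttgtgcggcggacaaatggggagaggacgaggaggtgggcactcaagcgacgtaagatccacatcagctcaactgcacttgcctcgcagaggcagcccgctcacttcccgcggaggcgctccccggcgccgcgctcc
*XBP1*, chr22:28800520-28800819, minus strand: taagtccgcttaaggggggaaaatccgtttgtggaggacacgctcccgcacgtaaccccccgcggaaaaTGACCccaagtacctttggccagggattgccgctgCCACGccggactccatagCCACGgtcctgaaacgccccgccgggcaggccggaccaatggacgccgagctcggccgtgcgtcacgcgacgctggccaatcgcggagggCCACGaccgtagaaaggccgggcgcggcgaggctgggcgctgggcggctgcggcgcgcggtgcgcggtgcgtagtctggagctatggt

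The *AGR2* window held 1 GATA match and no match to the other 3 motifs. The *FOXA1* window held 1 forkhead match, on the opposite strand and near its upstream end. The upstream *XBP1* window held 3 stress element matches and 1 estrogen response element core. Over all 35116 promoter windows of the same 300 bases, 7.17% held the forkhead motif, 10.3% the GATA motif, 37.4% the estrogen response element core and 38.1% the stress element core. The 7 genes had 21 windows in all, of which 2 held a forkhead match (in *GATA3* and *FOXA1*), 1 a GATA match (in *AGR2*), 8 the estrogen response element core (in *ESR1*, *PGR*, *GATA3* and *XBP1*) and 10 the stress element core (in *ESR1*, *PGR*, *GATA3*, *XBP1* and *MLPH*). Windows of 1 gene may overlap. A match is a run of letters in the reference and not a measured binding site.

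All values below are log2 signals after RMA, so that a difference of 1 is a 2-fold difference in signal. The array medians lay between 4.04 and 4.13, the 2 arrays of any pair within a group correlated at r = 0.982 to 0.987, and no pair of arrays held identical values. The number of arrays limits the precision of every comparison, and the p-values cover no more than the variation among these arrays, since the labels do not say whether replicates came from separate cultures. *PART1*, the targeted RNA, measured 4.04, 3.68 and 4.07 on HCC1806 arrays labelled GapmeR 1, with 4.03, 4.47 and 3.87 on arrays labelled GapmeR 2, against 3.88, 3.69 and 3.94 on HCC1806 control arrays. No lower *PART1* signal was thus measured with either GapmeR in HCC1806 (log2 differences 0.09 ± 0.18 and 0.28 ± 0.18, SE), where the control arrays themselves placed it under the array median on 3 of 3 arrays, at the 43.3 to 47.8 percentile, so that a decrease might not be visible. In HCC1395, *PART1* measured 4.93, 4.72 and 5.36 with GapmeR 1 and 4.86, 5.29 and 4.70 with GapmeR 2, against 5.45, 5.76 and 5.61 on control arrays. These groups did not overlap (log2 differences -0.60 ± 0.20 and -0.66 ± 0.20, SE, adjusted p = 0.895 and 0.701 by limma over all transcript clusters). The groups are therefore named below by their array labels.

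Markers of cell types were read from lists, and a listed gene counted as measured if a transcript cluster carried its symbol. Since 37519 of 53617 transcript clusters carried no symbol, a gene not counted may still be on the array. Of 18 measured genes of luminal and general epithelium, 14 lay above the array median on all 9 HCC1806 arrays and 7 on all 9 HCC1395 arrays, where 62.7% and 62.5% of the transcript clusters with a gene symbol did so. Of 7 mesenchymal markers 4 did so in HCC1806 and 7 in HCC1395. *EPCAM*, an adhesion protein of epithelial cells, lay between 10.9 and 11.3 in HCC1806 and between 4.26 and 5.06 in HCC1395, and *VIM*, the mesenchymal intermediate filament vimentin, between 4.57 and 5.63 in HCC1806 and between 8.80 and 9.67 in HCC1395. Of 7 measured markers of leukocytes, endothelium and adipocytes, 6 stayed between 1.81 and 4.23 on all arrays, close to or under the array median, and the exception was *CD68*, a lysosomal protein of macrophages that other cells also express (9.24 to 10.1 in HCC1806 and 5.48 to 6.03 in HCC1395). Whole cultures were measured, so fewer cells carrying a transcript and less RNA per cell cannot be told apart.

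**Figure D1:**
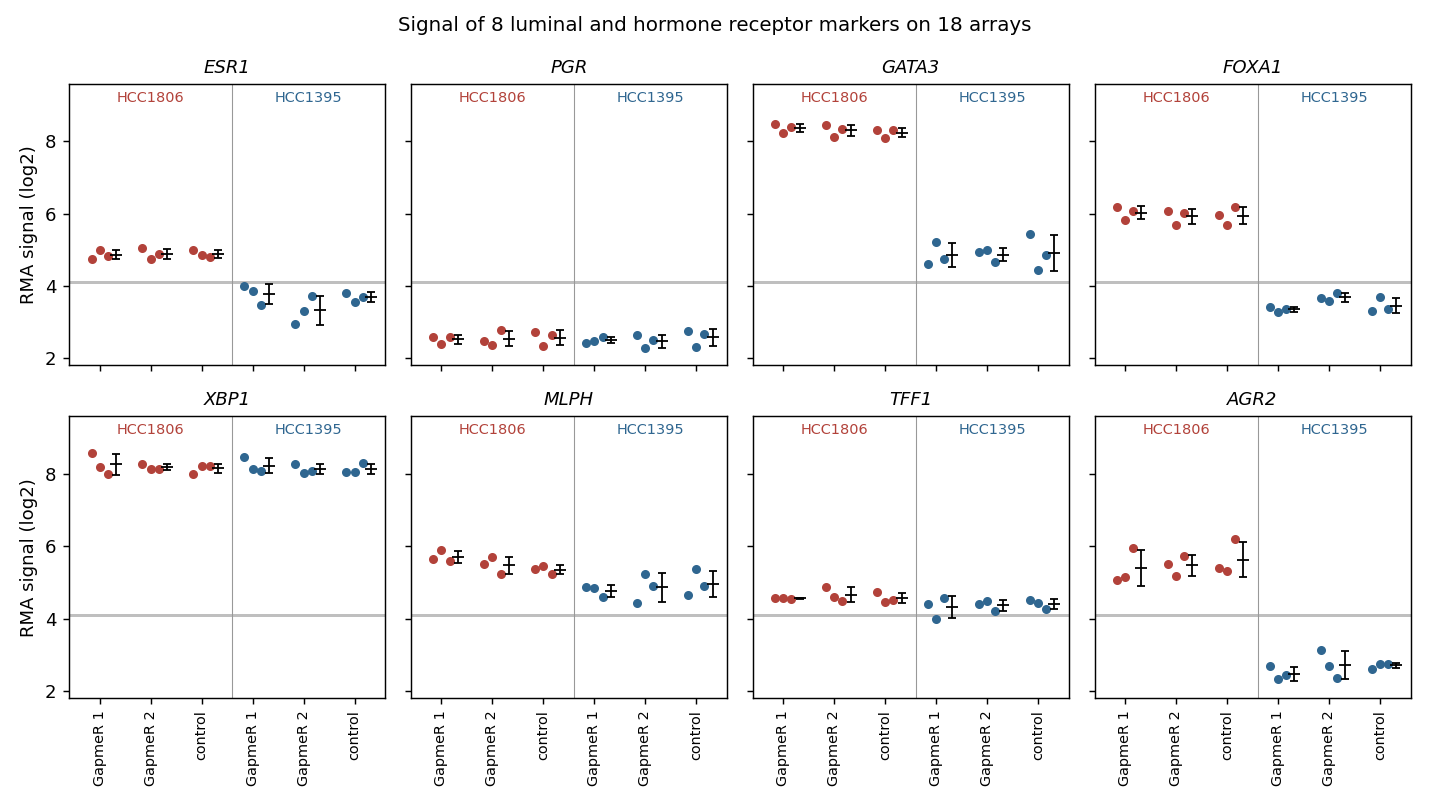
Log2 RMA signal of each of the 8 genes on every array, by line and GapmeR (colored points, 1 per array, in the order of the replicate numbers), with the mean and SD of each group (black, n = 3). The gray band spans the array medians of 4.04 to 4.13. *GATA3*, *FOXA1*, *AGR2* and *ESR1* are separated between the lines, *XBP1* is bright in both and *PGR* is dim in both.

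On the control arrays, *GATA3*, *AGR2*, *FOXA1* and *ESR1* had higher signals in HCC1806 than in HCC1395, by 10.05-, 7.62-, 5.65- and 2.29-fold. In HCC1395, *AGR2*, *FOXA1* and *ESR1* were above the array median on 0 of 9 arrays and inside the range of 1.81 to 4.23 covered by the 6 dim markers of leukocytes, endothelium and adipocytes. The folds of these 3 genes are therefore at most lower bounds, and a decrease of them in HCC1395 might not be visible. *XBP1*, *PGR*, *TFF1* and *MLPH* did not pass the test between the lines. Thus 4 of 8 genes were called at an adjusted p under 0.05, all 4 higher in HCC1806. The same test called 29.3% of all transcript clusters in either direction and 14.4% as higher in HCC1806, and among the 16098 transcript clusters with a gene symbol 42.8% and 21%. The median log2 difference was 0.79 over the 8 genes and -0.001 over all transcript clusters.

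*GATA3* measured 8.32, 8.10 and 8.32 on HCC1806 control arrays, against 5.44, 4.45 and 4.87 on HCC1395 control arrays. The lowest HCC1806 array stood well above the highest HCC1395 array, and the difference was 3.33 ± 0.21 log2 (SE, 95% interval 2.89 to 3.77, adjusted p = 2.4e-09 by limma). Over all 9 arrays of a line, *GATA3* lay at the 91.9 to 93.6 percentile of all transcript clusters in HCC1806 and at the 55.9 to 70.2 percentile in HCC1395, where it was still above the array median on 9 of 9 arrays. Among the transcript clusters with a gene symbol, the HCC1395 arrays placed it at the 36.9 to 54.2 percentile.

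*FOXA1*, the forkhead pioneer factor, measured 5.96, 5.70 and 6.18 on HCC1806 control arrays and 3.30, 3.68 and 3.36 on HCC1395 control arrays. The difference was 2.50 ± 0.15 log2 (SE, 95% interval 2.18 to 2.82, adjusted p = 1.6e-09 by limma). *FOXA1* was above the array median on 9 of 9 HCC1806 arrays and on 0 of 9 HCC1395 arrays, where it ranged over the 36.1 to 45.6 percentile.

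*ESR1*, the estrogen receptor, was of middling brightness even where it was higher. It measured 4.999, 4.85 and 4.80 on HCC1806 control arrays, against 3.82, 3.54 and 3.70 on HCC1395 control arrays. The difference was 1.19 ± 0.18 log2 (SE, 95% interval 0.82 to 1.57, adjusted p = 5.0e-05 by limma), the smallest of the 4 that passed. Over all 9 arrays of a line, *ESR1* occupied the 61.2 to 65.6 percentile in HCC1806 and the 30.1 to 48.7 percentile in HCC1395. Among the transcript clusters with a gene symbol, which are brighter as a class, even the HCC1806 arrays placed it under the middle, at the 41.8 to 47.6 percentile. Probes differ in how strongly they bind, so a percentile places a signal on the array and is not a transcript abundance.

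*PGR*, the progesterone receptor, was dim in both lines. Its signals were 2.73, 2.34 and 2.63 on HCC1806 control arrays, against 2.76, 2.30 and 2.66 on HCC1395 control arrays. The arrays of both lines covered the same range, under the array median on all 18 arrays. The difference was -0.01 ± 0.15 log2 (SE, 95% interval -0.33 to 0.31, adjusted p = 0.98 by limma). *PGR* lay between the 18.7 and the 26.9 percentile over both lines.

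*AGR2*, the disulfide isomerase, measured 5.39, 5.30 and 6.19 on HCC1806 control arrays and 2.61, 2.74 and 2.75 on HCC1395 control arrays. Replicate 3 was the brightest array of each HCC1806 group, while no HCC1395 array exceeded 3.13. The line difference was 2.93 ± 0.27 log2 (SE, 95% interval 2.37 to 3.49, adjusted p = 1.9e-07 by limma). *AGR2* was above the array median on 9 of 9 HCC1806 arrays (65.7 to 78.5 percentile) and on 0 of 9 HCC1395 arrays (19.5 to 33.5 percentile).

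*XBP1*, the stress response factor, was bright and even. It measured 8.01, 8.23 and 8.23 on HCC1806 control arrays and 8.07, 8.07 and 8.31 on HCC1395 control arrays. The difference was 0.01 ± 0.15 log2 (SE, 95% interval -0.31 to 0.33, adjusted p = 0.98 by limma). Over all 18 arrays *XBP1* lay between the 91.6 and the 94.2 percentile.

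*TFF1*, the trefoil peptide, and *MLPH*, the myosin adaptor, lay near or above the middle of the array in both lines. *TFF1* measured 4.73, 4.46 and 4.51 on HCC1806 control arrays, against 4.52, 4.43 and 4.26 on HCC1395 control arrays. The lines overlapped, with a difference of 0.17 ± 0.15 log2 (SE, 95% interval -0.16 to 0.49, adjusted p = 0.50 by limma). *TFF1* was above the array median on 9 of 9 HCC1806 arrays and 8 of 9 HCC1395 arrays, by at most 0.56 log2 in any group mean. *MLPH* measured 5.37, 5.47 and 5.24 on HCC1806 control arrays, against 4.66, 5.36 and 4.89 on HCC1395 control arrays. Its difference of 0.39 ± 0.20 log2 (SE, 95% interval -0.04 to 0.82) missed the threshold (adjusted p = 0.19 by limma), and without HCC1395 control replicate 2, the brightest of its group, it was 0.59 with an adjusted p of 0.048, whereas without HCC1395 control replicate 1, the dimmest, it was 0.23 with an adjusted p of 0.53.

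Over all 9 arrays of each line, the HCC1806 arrays stood wholly above the HCC1395 arrays for *GATA3*, *FOXA1*, *AGR2* and *ESR1*, that is for 4 of 8 genes, against 17.3% of the transcript clusters with a gene symbol. For these 4 genes the 3 HCC1806 groups occupied the top of the order of 6 groups and the 3 HCC1395 groups the bottom. For *MLPH* and *TFF1* the means of the 3 HCC1806 groups were also above those of the 3 HCC1395 groups, but arrays of the lines overlapped, and for *XBP1* and *PGR* the group means of the lines were interleaved. Counted against the array median, 7 of 8 members lay above it on all 9 HCC1806 arrays and 3 of 8 (*GATA3*, *XBP1* and *MLPH*) on all 9 HCC1395 arrays, where 62.7% and 62.5% of the transcript clusters with a gene symbol did so.

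**Figure D2:**
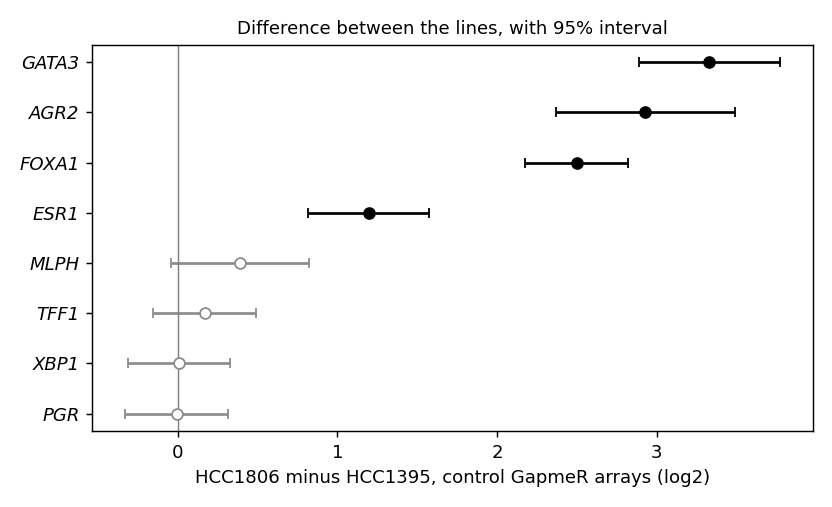
Log2 difference between the control GapmeR arrays, HCC1806 minus HCC1395 (n = 3 each), with the 95% interval of the limma fit over 18 arrays. Filled points passed an adjusted p of 0.05. *GATA3* (3.33), *AGR2* (2.93), *FOXA1* (2.50) and *ESR1* (1.19) stand to the right of 0, and the intervals of *MLPH*, *TFF1*, *XBP1* and *PGR* include 0.

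No member passed the adjusted test with either GapmeR in either line. In all 4 comparisons of 1 GapmeR with control and in the 2 comparisons of both GapmeRs with control, limma called 0 of 8 members and 0% of all 53617 transcript clusters at an adjusted p under 0.05, and contrasts without moderation of the variances called 0 of 8 as well. At an unadjusted p under 0.05, 1 of 8 members passed with GapmeR 1 in HCC1806 (*MLPH*) and 0 of 8 in the other 3 single comparisons. The same threshold took in 5.97% of all transcript clusters with GapmeR 1 and 5.07% with GapmeR 2 in HCC1806, and 5.39% with GapmeR 1 and 6.73% with GapmeR 2 in HCC1395. A threshold of 1.6-fold with an unadjusted p under 0.05, which the study used, was passed by 0 of 8 members in each of the 4 comparisons, against 1.26% of all transcript clusters with GapmeR 1 and 1.04% with GapmeR 2 in HCC1806, and 0.955% with GapmeR 1 and 1.06% with GapmeR 2 in HCC1395.

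*MLPH* with GapmeR 1 in HCC1806 had the smallest unadjusted p of the members in the 4 comparisons. It measured 5.66, 5.90 and 5.58 on arrays labelled GapmeR 1, with 5.51, 5.70 and 5.22 on arrays labelled GapmeR 2, against 5.37, 5.47 and 5.24 on HCC1806 control arrays. All 3 GapmeR 1 arrays exceeded every control array, whereas the GapmeR 2 arrays overlapped the control arrays. The log2 difference was 0.36 ± 0.16 with GapmeR 1 (SE, 95% interval 0.01 to 0.71, a 1.28-fold difference, unadjusted p = 0.046, adjusted p = 0.836 by limma) and 0.12 ± 0.16 with GapmeR 2 (SE, adjusted p = 1.00 by limma). It was thus 1 of 8 members whose GapmeR 1 and control arrays did not overlap in HCC1806, where 11.2% of all transcript clusters did the same. With GapmeR 2 in HCC1806, and with GapmeR 1 and GapmeR 2 in HCC1395, 0 of 8 members were free of overlap, against 10.6%, 11.4% and 12.7% of all transcript clusters.

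In HCC1395, *MLPH* measured 4.87, 4.84 and 4.59 with GapmeR 1 and 4.43, 5.24 and 4.91 with GapmeR 2, against 4.66, 5.36 and 4.89 on control arrays. The values of all 3 groups overlapped, with log2 differences of -0.20 ± 0.23 and -0.11 ± 0.23 (SE), and without HCC1395 control replicate 2 the difference with GapmeR 1 was -0.0078. The change with both GapmeRs was 0.39 ± 0.25 log2 larger in HCC1806 than in HCC1395 (SE, 95% interval -0.14 to 0.92, adjusted p = 0.830 by limma over 18 arrays). In that comparison of the lines, 0 of 8 members passed the adjusted test and 0 of 8 an unadjusted p under 0.05, against 0% and 6.6% of all transcript clusters.

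In HCC1806, *ESR1* measured 4.75, 4.995 and 4.84 on arrays labelled GapmeR 1, with 5.04, 4.74 and 4.88 on arrays labelled GapmeR 2, and both groups overlapped the control arrays. In HCC1395 it measured 4.01, 3.87 and 3.46 with GapmeR 1 and 2.94, 3.29 and 3.72 with GapmeR 2, against 3.82, 3.54 and 3.70 on control arrays. The 2 lowest arrays carried GapmeR 2, and the third GapmeR 2 array lay within the control range. The log2 differences from control were 0.09 ± 0.21 with GapmeR 1 and -0.37 ± 0.21 with GapmeR 2 (SE, 95% interval of the second -0.84 to 0.10, adjusted p = 0.985 and 0.764 by limma).

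*FOXA1* measured 6.18, 5.83 and 6.09 on HCC1806 arrays labelled GapmeR 1, with 6.07, 5.68 and 6.02 on arrays labelled GapmeR 2, and both groups overlapped the control arrays. In HCC1395 it measured 3.41, 3.28 and 3.36 with GapmeR 1 and 3.66, 3.57 and 3.80 with GapmeR 2, against 3.30, 3.68 and 3.36 on control arrays. The log2 difference in HCC1395 was -0.09 ± 0.13 with GapmeR 1 and 0.24 ± 0.13 with GapmeR 2 (SE, adjusted p = 0.975 and 0.757 by limma), and both groups overlapped the control arrays.

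The 2 GapmeRs were also set against each other. In HCC1395, *FOXA1* was lower with GapmeR 1 than with GapmeR 2 (log2 difference -0.33 ± 0.13, SE, unadjusted p = 0.030, adjusted p = 0.999 by limma). *ESR1* was higher with GapmeR 1 (0.46 ± 0.21, SE, unadjusted p = 0.055, adjusted p = 0.999 by limma), and its arrays with the 2 GapmeRs overlapped. Both genes lay above the array median on 0 of 9 HCC1395 arrays. At an unadjusted p under 0.05, 1 of 8 members passed in HCC1395 and 0 of 8 in HCC1806, against 4.65% and 5.9% of all transcript clusters. The adjusted test called 0% of them in HCC1395 and 0.00187% in HCC1806, which is 1 transcript cluster and no member.

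*AGR2* measured 5.07, 5.15 and 5.96 on HCC1806 arrays labelled GapmeR 1, with 5.50, 5.17 and 5.73 on arrays labelled GapmeR 2, against 5.39, 5.30 and 6.19 on control arrays. The log2 differences, -0.24 ± 0.30 and -0.16 ± 0.30 (SE), turned to 0.05 and 0.12 without HCC1806 control replicate 3, the brightest of its group. Replicate 3 was also the brightest array of both GapmeR groups in HCC1806. Leaving it out of the control group alone therefore unbalances the comparison, and the change of sign does not show which direction holds. In HCC1395, where it was dim, *AGR2* measured 2.69, 2.31 and 2.43 with GapmeR 1 and 3.13, 2.69 and 2.35 with GapmeR 2, against 2.61, 2.74 and 2.75 on control arrays. The differences were -0.23 ± 0.19 and 0.02 ± 0.19 log2 (SE).

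*GATA3* measured 8.47, 8.24 and 8.40 on HCC1806 arrays labelled GapmeR 1, with 8.44, 8.12 and 8.34 on arrays labelled GapmeR 2, and in HCC1395 it measured 4.60, 5.22 and 4.75 with GapmeR 1 and 4.94, 4.98 and 4.66 with GapmeR 2. All of these groups overlapped the control arrays of their line. The log2 differences of *GATA3* from control were 0.12 ± 0.14 with GapmeR 1 and 0.06 ± 0.14 with GapmeR 2 in HCC1806. In HCC1395 they were -0.06 ± 0.25 and -0.06 ± 0.25 (SE). Replicate 2 was the dimmest *GATA3* array of each HCC1806 group, which adds to the overlap there. *XBP1* measured 8.59, 8.20 and 8.01 on HCC1806 arrays labelled GapmeR 1, with 8.28, 8.15 and 8.13 on arrays labelled GapmeR 2. In HCC1395 it measured 8.46, 8.15 and 8.08 with GapmeR 1 and 8.29, 8.04 and 8.08 with GapmeR 2, and no *XBP1* value on any array left the range of 8.01 to 8.59. *PGR* lay between 2.27 and 2.77 on the 12 GapmeR arrays and between 2.30 and 2.76 on the 6 control arrays, and *TFF1* between 3.98 and 4.88 on the 12 GapmeR arrays and between 4.26 and 4.73 on the 6 control arrays.

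Over the 8 members, the log2 differences from control spanned -0.24 (*AGR2*) to 0.36 (*MLPH*) with GapmeR 1 and -0.16 (*AGR2*) to 0.12 (*MLPH*) with GapmeR 2 in HCC1806. In HCC1395 they spanned -0.23 (*AGR2*) to 0.09 (*ESR1*) with GapmeR 1 and -0.37 (*ESR1*) to 0.24 (*FOXA1*) with GapmeR 2. Their medians were 0.04 and 0.02 in HCC1806 and -0.08 and -0.04 in HCC1395, for GapmeR 1 and GapmeR 2 in that order, beside medians over all transcript clusters of 0.01, 0.01, 0.01 and -0.01. The widest 95% bounds of any member in the 4 comparisons were -0.90 (*AGR2*) and 0.71 (*MLPH*), both with GapmeR 1 in HCC1806. They are ends of single intervals with 3 arrays a group, and not a limit of detection that holds for every member.

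**Figure D3:**
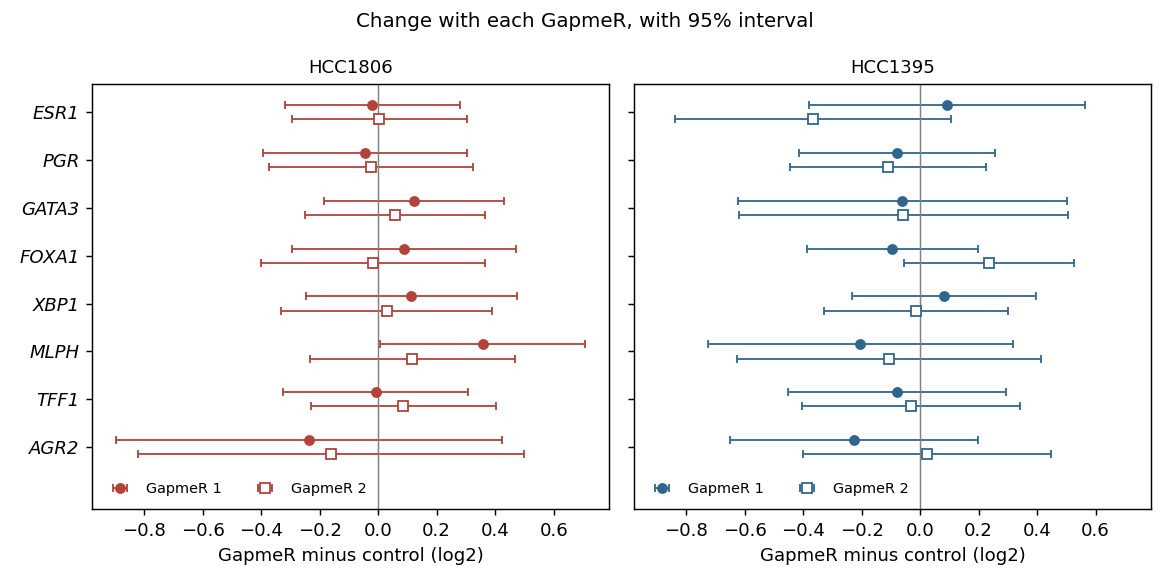
Log2 difference of each GapmeR from the control GapmeR in HCC1806 (left) and HCC1395 (right), with the 95% interval of the limma fit over the 9 arrays of a line (n = 3 for each group). Filled circles are GapmeR 1 and open squares GapmeR 2. Only the interval of *MLPH* with GapmeR 1 in HCC1806 (0.01 to 0.71) excludes 0, and it does so before adjustment for the number of transcript clusters.

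Genes around the 8 members were read from lists of known targets, partners and markers. Here too, measured means matched by symbol, and the listed genes left out were not matched, which does not show that the array lacks them. Of 16 listed targets of the estrogen receptor, 12 were measured, and on the control arrays 3 were called higher in HCC1806, 3 lower and 6 not called, with a median difference of -0.07 log2. Beside this count and those of the lists that follow, 42.8% of the transcript clusters with a gene symbol were called, 21% as higher and 21.8% as lower in HCC1806. Not called were *GREB1*, *PDZK1* and *TFF3* (-0.08, -0.07 and -0.04 log2), hallmarks of receptor activity in hormone responsive cells, and *MYB*, *STC2* and *NRIP1*. *PDZK1* lay above the array median on 0 arrays of either line and *GREB1* on 1 HCC1806 and 2 HCC1395 arrays. A difference of these dim genes might not be visible. *STC2* and *NRIP1* (brightest of 2 transcript clusters) were bright in both lines, with control means of 7.84 and 8.71 in HCC1806 and 7.77 and 8.81 in HCC1395. The called targets ran in opposite directions. *IGFBP4*, an insulin-like growth factor binding protein, was higher in HCC1806 (1.32 ± 0.17 log2, SE, adjusted p = 1.0e-05 by limma). The chemokine *CXCL12* (-2.62 ± 0.22), the prolactin receptor *PRLR* (-2.51 ± 0.19) and the carbonic anhydrase *CA12* (-1.77 ± 0.18) were lower in HCC1806.

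Of 16 listed cofactors and partner factors of the receptor, 9 were measured, of which 1 was called higher in HCC1806 and 7 lower (median -0.77 log2). The exception was *GRHL2*, an epithelial transcription factor, at 4.61 ± 0.15 log2 (SE, adjusted p = 1.2e-12 by limma). The methyltransferase *KMT2C* (-2.18 ± 0.13), the factor *TFAP2C* (-1.95 ± 0.14) and the coactivator *NCOA2* (-1.68 ± 0.15) were lower in HCC1806. *ESR2*, the second estrogen receptor, measured 3.85 in HCC1806 and 3.74 in HCC1395 on average and was not called.

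The luminal epithelium list held the widest differences. It was not limited to genes particular to luminal cells, so it does not tell a luminal from a general epithelial difference. Of its 27 genes, 18 were measured, and 13 were called higher in HCC1806, 0 lower and 5 not called (median 2.05 log2). The splicing factor *ESRP1* (6.86 ± 0.22), the adhesion protein *EPCAM* (6.44 ± 0.18), the ETS factor *EHF* (5.97 ± 0.17) and the keratin *KRT19* (5.32 ± 0.27) led it, all with larger log2 differences than *GATA3*. *KRT18* (brightest of 2 transcript clusters) and *CD24* averaged 7.11 and 7.07 on HCC1395 control arrays, and *NAT1* 3.69 on HCC1806 control arrays. The markers not called were *KRT8*, *SPDEF*, *ELF5*, *AGR3* and *ANKRD30A*. *AGR3*, the neighbor and paralog of *AGR2*, averaged 1.17 in HCC1806 and 1.28 in HCC1395 on the control arrays.

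Of 16 genes of the unfolded protein response and of secretion, 9 were measured, and 5 were called higher and 2 lower in HCC1806 (median 0.52 log2), beside an *XBP1* whose total signal was even. Spliced and unspliced *XBP1* mRNA were not told apart, so the even signal does not give the level of the active form. *SDF2L1*, an endoplasmic reticulum stress target, was 2.83 ± 0.20 log2 higher (SE), and *SEL1L*, a component of the degradation machinery, 1.06 ± 0.10 log2 lower. *ERN1*, which encodes the kinase and endoribonuclease that splices *XBP1* mRNA, was 0.52 log2 higher (adjusted p = 0.026 by limma), and *ATF6* was not called. Of 10 genes of the melanophilin transport complex and its relatives, 7 were measured, with 2 called higher (the effector *EXPH5*, 2.00 ± 0.23, and the myosin *MYO5C*, 1.96 ± 0.18) and 2 lower (*SYTL2*, -1.71 ± 0.16, and *MYO5B*, -0.45 ± 0.13, SE).

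Of 16 basal markers, 6 were measured, with 3 called higher in HCC1806 and 1 lower. The basal keratin *KRT5* was 3.96 ± 0.18 log2 higher (SE), while *EN1* was 1.87 ± 0.16 log2 lower. Of 10 mesenchymal markers, 7 were measured and all 7 were called lower in HCC1806 (median -2.36 log2), led by *FN1* (-4.58 ± 0.26), *VIM* (-4.19 ± 0.23, brightest of 3 transcript clusters) and *ZEB1* (-4.15 ± 0.21, SE). Not all of them were dim in HCC1806, where *SNAI2*, a repressor of epithelial genes, averaged 10.9 on the control arrays.

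**Figure D4:**
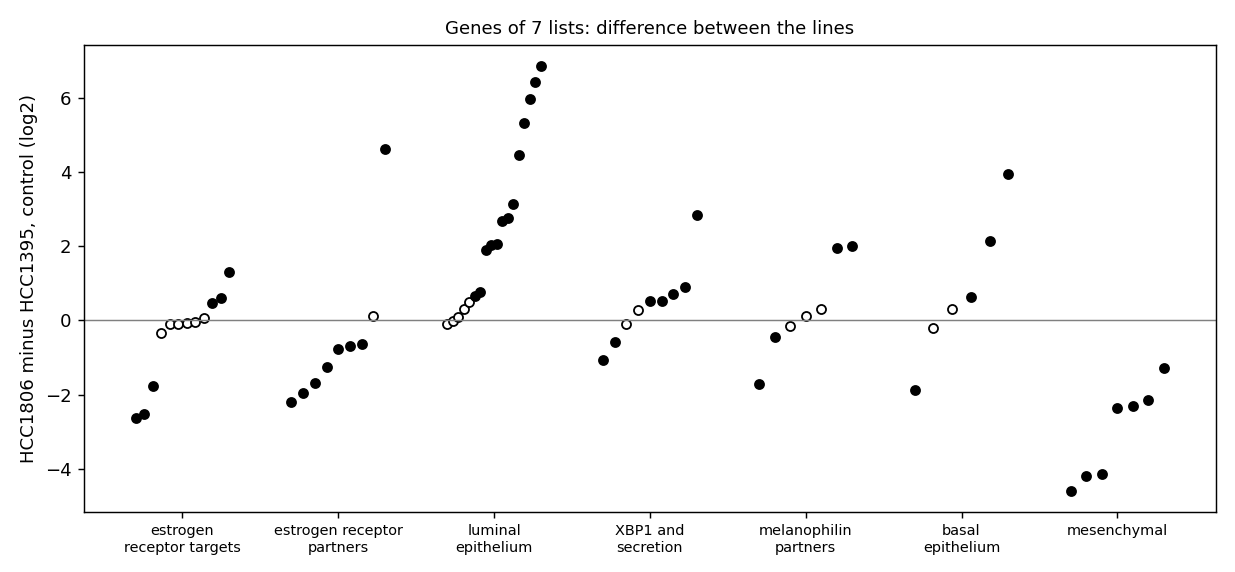
Log2 difference between the control GapmeR arrays, HCC1806 minus HCC1395, for the measured genes of 7 lists, sorted within each list (1 point per gene). Filled points passed an adjusted p of 0.05. Genes of the luminal epithelium list reach 6.86 and none was called below 0, mesenchymal markers all lie below 0, and targets of the estrogen receptor spread to both sides.

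With the GapmeRs, 0 genes of these lists were called in either line at an adjusted p under 0.05, by limma. An unadjusted p under 0.05 with both GapmeRs took in 5.26% of all transcript clusters in HCC1806 and 6.55% in HCC1395. In HCC1806 the splicing factor *ESRP1* passed it and was lower (-0.31 ± 0.14 log2, SE, adjusted p = 0.943 by limma). It was 1 of 18 genes of the luminal list, while 0 of 12 receptor targets and 0 of 7 melanophilin relatives passed with both GapmeRs in that line. In HCC1395 the claudin *CLDN7* (-0.50 ± 0.19), the receptor target *CA12* (-0.37 ± 0.15) and the melanophilin relatives *MYRIP* (-0.32 ± 0.13) and *MYO5B* (-0.29 ± 0.10, SE) passed that threshold. Each was lower, with an adjusted p between 0.734 and 0.746 by limma. They were 1 of 18 luminal list genes, 1 of 12 receptor targets and 2 of 7 melanophilin relatives, named because they passed. Of the receptor partners and of the secretion list, 0 of 9 each passed with both GapmeRs in either line. *CLDN7* had a mean of 4.94 on HCC1395 control arrays. The monocyte marker *CD14*, at 3.98 on HCC1395 control arrays, was lower as well (-0.44 ± 0.13, SE), as 1 of 3 leukocyte markers. Over the other marker lists, 0 of 6 basal, 0 of 7 mesenchymal and 0 of 2 fibroblast genes passed the unadjusted threshold with both GapmeRs in either line. With 1 GapmeR at a time further results passed it, beside the shares of all transcript clusters given above. *CA12*, 1 of 12 targets, was lower with GapmeR 2 in HCC1806 (-0.50 ± 0.18) and HCC1395 (-0.54 ± 0.17, SE), but did not pass with GapmeR 1. With GapmeR 1 in HCC1806, *NCOA1* (-0.57 ± 0.21) and *EXPH5* (-0.57 ± 0.23, SE) were lower. *KRT7* (-0.65) and *KRT5* (-0.41) were lower with GapmeR 2 in HCC1395. *LYZ* there and *VWF* in HCC1806 were higher with GapmeR 2.

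For the 4 members with a line difference over 1 log2 unit, the 3 transcript clusters nearest in profile were found by the root mean square (RMS) difference of log2 signals, centred on each gene's mean, over the 18 arrays. Those nearest to *GATA3* were *EPPK1*, *KRT18* and *PKP1* (RMS 0.22, 0.26 and 0.27 log2), which encode the plakin epiplakin, a simple epithelial keratin and a desmosomal plakophilin. Those nearest to *FOXA1* were *CCNDBP1*, *FOXF2* and *DPY30* (0.17, 0.17 and 0.17 log2). *AGR2* lay nearest to *NDFIP2*, *ZNF418* and *IKZF2* (0.28, 0.29 and 0.29 log2), and *ESR1* to *ECHDC3*, *RPL24* and *CSMD1* (0.17, 0.19 and 0.20 log2). The median RMS over all transcript clusters with a symbol was 1.73 for *GATA3*, 1.25 for *FOXA1*, 1.46 for *AGR2* and 0.70 for *ESR1*. This likeness rests on 2 clusters of arrays, the lines, so that any gene with a like gap between them comes near. *KRT18* and *RPL24* have processed copies in the genome, with which their probes may share signal. The *KRT18* transcript cluster was the brighter of 2 with that symbol, and which copy it measures was not tested.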

How the data were processed

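RNA of HCC1806 and HCC1395 cells, taken after 48 h of treatment, was hybridized to Affymetrix Human Gene 2.0 ST arrays. The deposited values are log2 signals of 53617 transcript clusters, which the authors made by RMA (background correction, quantile normalization across arrays and summary of probes) in the Affymetrix Expression Console, as the processing notes of the submitters state, of which no version is known. Quantile normalization gives all arrays nearly the same distribution and would remove a shift of all genes. The sources used here do not give the genome build. The platform's table gave 1 symbol for 16098 transcript clusters, none for 37519 and several for none. All 18 arrays were used, grouped by line and GapmeR, and no further normalization was applied. Each GapmeR was compared with the control of its line by the two-sided moderated test of limma 3.58.1 (R 4.3.3, lmFit followed by eBayes) over the 9 arrays of a line, and the lines were compared over all 18 arrays, and p-values were adjusted by the Benjamini-Hochberg method over every transcript cluster on the array. The fits were tested on simulated data. The comparisons with GapmeR 1 and GapmeR 2 share control arrays.

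The 8 members and the lists were chosen with earlier results of these data known. Named genes were all members and, of each list, up to 4 with the smallest unadjusted p with both GapmeRs in each line, up to 4 with the widest line difference and, for members differing by over 1 log2 unit, the 3 nearest profiles. Other genes are named only as counts of 6 or fewer or as the list's exceptions, chosen after their values were seen. Where a gene had several transcript clusters, the brightest stood for it. The dim reference that had been intended, olfactory receptors, held 1 transcript cluster with a symbol and was replaced by the array median. Alternatives were quantile normalization, median centring, leaving out the dimmest 40%, symbols only, a trended robust prior, unmoderated ANOVA contrasts, other arrays in the fit, a replicate block and leaving out each array. Columns of the authors' comparisons were not used. Promoter windows and gene positions came from RefSeq on GRCh38.p14.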

Additional observations from a re-analysis of the deposited data

Results flagged for a closer look

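*MLPH* was the 1 member whose GapmeR 1 arrays lay on opposite sides of the control means in the lines. With GapmeR 1, 3 of 3 HCC1806 arrays lay above the mean of their controls and 3 of 3 HCC1395 arrays below the mean of theirs. The difference between the lines was 0.56 ± 0.29 log2 (SE, 95% interval -0.05 to 1.17, unadjusted p = 0.069, adjusted p = 0.878 by limma over 18 arrays), a comparison added after the values were seen. Without HCC1395 control replicate 2 it was 0.37 (adjusted p = 0.929 by limma), with 1 of 3 HCC1395 arrays below the mean of the remaining controls, and the *MLPH* difference in HCC1395 itself was -0.0078 in place of -0.20. Leaving out each other array gave 0.47 to 0.72. Groups of 3 arrays were too small to be searched for outlying arrays.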

How the results depend on the processing

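The 4 line differences called (*GATA3*, *AGR2*, *FOXA1*, *ESR1*) kept their direction and call under every alternative run. Of the 23 values of members tested, the 182 values under settings other than leaving out an array included 1 change of sign, *XBP1* between the lines (-0.041 after quantile normalization). The dimmest 40% included *PGR*, which has no value under that filter. Leaving out 1 array in turn gave line differences of -0.15 to 0.10 for *PGR* and -0.033 to 0.088 for *XBP1*. For the GapmeR differences it gave -0.52 to 0.047 and -0.32 to 0.12 for *AGR2* in HCC1806 (GapmeR 1, then 2), -0.18 to 0.21 for *AGR2* with GapmeR 2, -0.30 to 0.11 for *MLPH* with GapmeR 2, -0.021 to 0.25 for *ESR1* with GapmeR 1 and -0.17 to 0.023 for *FOXA1* with GapmeR 1 in HCC1395, and 0.27 to 0.42 for *MLPH* with GapmeR 1 in HCC1806. One array also moved these uncalled values by over 1.5 times: *MLPH* between the lines (0.23 to 0.59), with GapmeR 2 in HCC1806 (0.0065 without GapmeR 2 replicate 2, to 0.25), with GapmeR 1 in HCC1395 (-0.36 without control replicate 1, to -0.0078 without control replicate 2) and between the lines' responses (0.20 without HCC1395 control replicate 2, to 0.55), *TFF1* between the lines (0.084 to 0.22), and in HCC1395 *AGR2* with GapmeR 1 (-0.33 to -0.14), *FOXA1* with GapmeR 2 (0.16 to 0.35), *ESR1* with GapmeR 2 (-0.57 without GapmeR 2 replicate 3, to -0.18 without GapmeR 2 replicate 1) and *ESR1* between the GapmeRs (0.27 without GapmeR 2 replicate 1, to 0.66). *MYO5B* lost its line call without HCC1806 control replicate 1 or 2 or HCC1395 control replicate 1 (-0.55 to -0.36). The number of transcript clusters called between the lines was 15722, and 7427 among those with a symbol, where fewer were tested. With symbols only, 1 was called with GapmeR 1 in HCC1395. With all 18 arrays in the fit, 1 was called with GapmeR 2 and 1 with both GapmeRs in HCC1395, and without moderation 1 between the GapmeRs in HCC1395. The 1 called between the GapmeRs in HCC1806 fell to 0 with symbols only, without moderation, with 18 arrays or with the replicate block. Leaving out 1 array gave 0 to 6 called with GapmeR 1 in HCC1806 (6 without GapmeR 1 replicate 3), and 0 to 1 between the GapmeRs in HCC1806, between them in HCC1395 and between the lines' responses. The cause of these shifts was not tested. Same-numbered arrays deviated together at r = -0.01 to 0.09 in HCC1806 and -0.00 to 0.11 in HCC1395. Arrays of other numbers did so at r = -0.09 to 0.02 and -0.10 to 0.08. In HCC1806 9 of 9 arrays, and in HCC1395 5 of 9, correlated best with their own number. The labels give no more than a shared number, and the main tests did not pair the arrays. The replicate block changed no call of a member. Members near the array median, and the 3 arrays a group, limit how small a change could be seen.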
